A study of Mus musculus with 24 samples.

Results

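Single mouse erythroid progenitors that held Gata2 transcripts were compared with erythroid progenitors of the same plate in which no Gata2 read was counted. The labels call the cells BFU-E, the burst-forming unit of the erythroid line, a progenitor already committed to making red cells and named for the bursts of erythroid colonies they give in culture. Of 24 sequenced cells, the 19 with Klf1 at 10 CPM or more (CPM, a gene's reads scaled to the same total in every cell) were kept as erythroid. Of these, 14 had at least 5 Gata2 counts and are called Gata2-detected, and 5 had fewer and are called Gata2-undetected. The other 5 cells had less than 10 CPM of Klf1 and entered neither set. The members were thus chosen by their Klf1 and Gata2 levels, and both are given as a description.

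All cells came from C57/Bl6J mouse fetal liver at embryonic day 14.5, and no treatment, allele or transgene is named in the labels. Per the labels' protocols, red cells were lysed and beads removed cells bearing CD3e, CD45R, Ly-6G, CD11b, Ter119, Ly-6A/E, CD16/32 or CD41. Antibodies to CD117, CD71 and CD24 then guided the sort of the remainder, 1 cell to a plate well, for Smart-seq2, which copies polyadenylated RNA along its length, amplifies it without molecular identifiers and here kept no strand information. The sources used here do not give the gates that defined a BFU-E, the number of embryos or any pooling of litters. The 24 cells therefore form 1 sample of 1 label group, cells are not replicates, so differences are given without a test. Intervals and detection limits below cover counting error only. The intervals take each amplified read as an independent count and leave out the spread between cells. Intervals that stay apart therefore do not show that the sets differ.

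GATA1 and GATA2 are zinc finger transcription factors that recognise the same short DNA word. GATA2 acts in haematopoietic stem cells, in early progenitors and in the mast cell and megakaryocyte lines, whereas GATA1 drives erythroid and megakaryocytic maturation. As erythroid differentiation proceeds, GATA1 with its cofactor FOG1 displaces GATA2 from chromatin, including at the Gata2 locus itself, an exchange known as the GATA switch. KLF1 is an erythroid zinc finger activator of globin, haem synthesis and red cell membrane genes.

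Gata2 (chromosome 6, 88193891 to 88207032, build GRCm38, coordinates of GENCODE M21 throughout) spanned 2 orders of magnitude among the cells that held it. In the 14 Gata2-detected cells it had a lowest value of 14.8, a median of 139.6 and a highest value of 1487 CPM, the highest in cell 3 and the lowest in cell 13. In each of the 5 Gata2-undetected cells (cells 2, 4, 7, 11 and 17) it had 0 counts, and 3 counts would have been 1.73 to 2.19 CPM there. No kept cell lay near the threshold of 5 counts, since cell 13 held 24 counts and the next cell below it held 0. The share with Gata2 was 14 of 19, or 73.7%, which describes these cells only. The kept cell nearest the Klf1 threshold was cell 10 at 32.4 CPM, and the highest cell left out was cell 24 at 8.12 CPM.

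Gata1 (chromosome X, 7959260 to 7978071) was counted in every kept cell of both sets. It had a lowest value of 188, a median of 377 and a highest value of 598 CPM in the Gata2-detected cells. In the Gata2-undetected cells, in the order 2, 4, 7, 11 and 17, it had 319, 584, 349.5, 419 and 493 CPM. Both sets thus held high Gata1 and overlapped, with 6 Gata2-detected cells below the lowest Gata2-undetected cell and 1 above the highest. Mean log2(CPM + 1) was 8.46 ± 0.49 (SD, n = 14) against 8.73 ± 0.36 (SD, n = 5), a difference of -0.26, and the Gata2-detected cell was the higher in 34.3% of the 70 pairs that set 1 cell of each kind side by side. Summed over cells, Gata1 made up 8538 of 22673566 counts, or 377 CPM (95% interval 369 to 385), against 3379 of 7731667, or 437 CPM (422 to 452). These intervals are exact Poisson and leave out the spread between cells, by which the sets overlapped. Within the Gata2-detected cells alone, Spearman's rho of Gata1 with Gata2 was -0.37 over 14 cells, and over all 19 kept cells it was -0.39. These cells share a plate, and Gata2 chose the sets, so the rho values are a description.

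Klf1 (chromosome 8, 84901928 to 84905291) had a lowest value of 32.4, a median of 473 and a highest value of 1008 CPM in the Gata2-detected cells. The Gata2-undetected cells, in the same order, had 317, 735, 707, 606 and 471 CPM. The sets overlapped and the low extreme came from cell 10 alone. The difference of means on the log2(CPM + 1) scale was -0.41, and it was -0.14 without cell 10, so that 1 cell carried most of it. Its rho with Gata2 was -0.43 over 19 cells and -0.50 over the 14 with Gata2. The label as erythroid cells thus matched Klf1 by construction and Gata1 by measurement, while Epor, the erythropoietin receptor, was at 5 counts or more in 14 of 14 Gata2-detected and 4 of 5 Gata2-undetected cells.

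**Figure D1:**
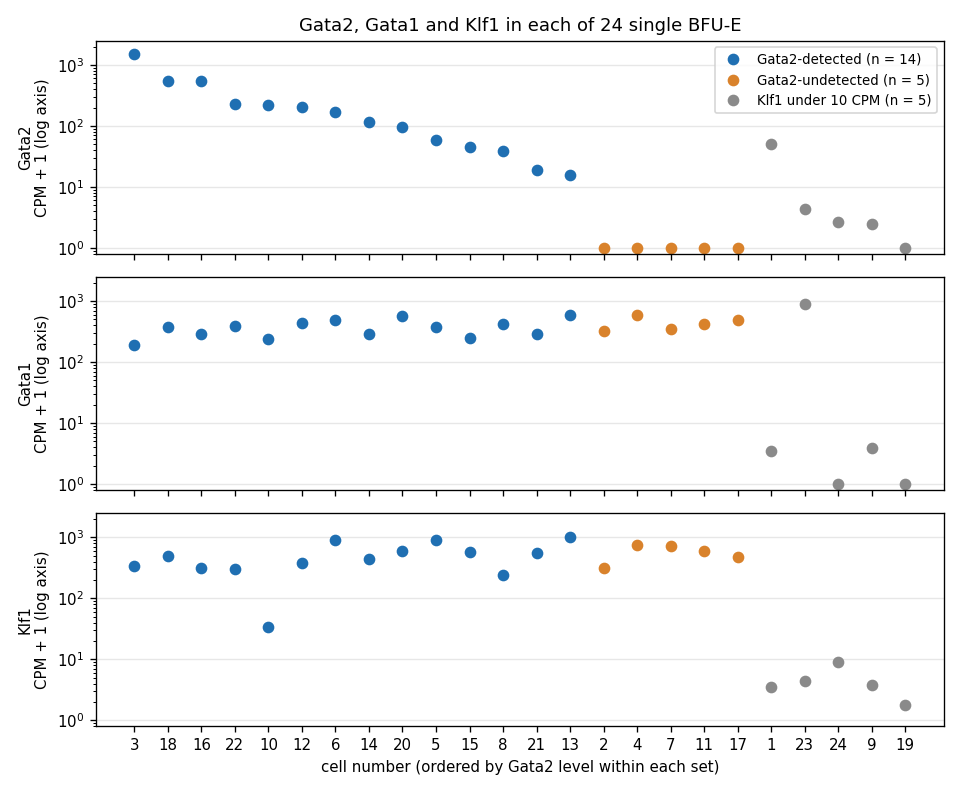
Gata2, Gata1 and Klf1 in each of the 24 cells, as CPM + 1 on a log axis, ordered by Gata2 within each set (blue, 14 Gata2-detected; orange, 5 Gata2-undetected; grey, 5 cells with Klf1 under 10 CPM). Gata2 ran from 14.8 to 1487 CPM in the blue cells and was 0 in the orange ones, while Gata1 lay between 187.5 and 598 CPM in all 19 blue and orange cells.

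The sets were alike in depth. Totals were 1135880 to 2155010 counts (median 1633745) in the Gata2-detected and 1371556 to 1737021 (median 1533959) in the Gata2-undetected cells, and the median number of genes at 5 counts or more was 6006 against 6197. With every cell thinned to 1135880 counts these medians were 5814 and 6082, and no cell changed set. Between Gata2 and total counts, Spearman's rho was -0.03 over 19 cells. Position on the plate was not balanced: plate columns 1, 2 and 3 held 4, 4 and 6 Gata2-detected cells but 2, 3 and 0 Gata2-undetected cells. Values taken within columns 1 and 2 are given beside the results below. Cell 10, the lowest in Klf1, also had the highest summed level of 16 hepatocyte genes (1756 CPM, where the Gata2-undetected cells had 18.2 to 65.9 CPM). The part of plate position, cell 10 or doublets in the differences was not tested, and no doublet caller was run on these 24 cells.

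Across the genome, 7672 genes other than Gata2 had 5 counts or more in at least 6 kept cells and were compared. A gene is called higher or lower below where its mean log2(CPM + 1) differed by 1 or more between the sets. By that measure 1290 genes (16.8%) were higher in Gata2-detected cells and 1376 (17.9%) were lower, with a median difference of -0.09 over all 7672 genes. Only 288 of the higher and 331 of the lower genes also went the same way in at least 75% of the 70 cell pairs, and for no gene did the sets fail to overlap in either direction. With 5 cells on one side, a difference of 1 was therefore common, and a list's count is to be read against these shares. The filter was not symmetric either, since a gene seen only in the 5 Gata2-undetected cells could not pass it, whereas 118 compared genes reached 5 counts in no Gata2-undetected cell.

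**Figure D2:**
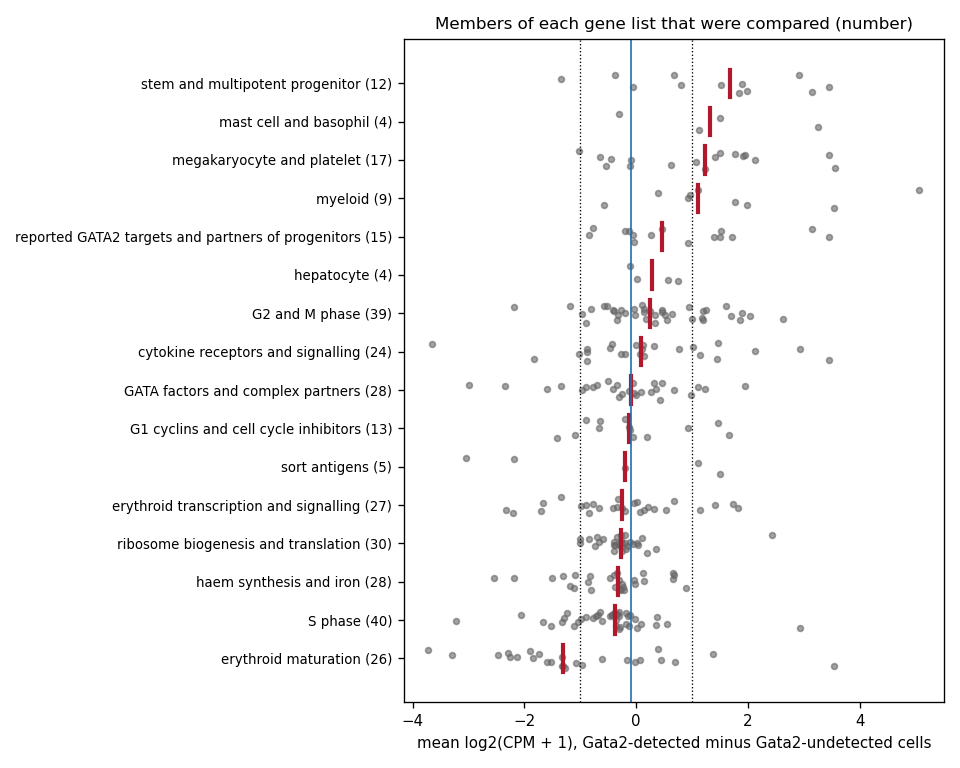
Difference in mean log2(CPM + 1), Gata2-detected minus Gata2-undetected cells, for each compared member (dot) of the gene lists with at least 4 compared members, with the list median (red bar), the median of all 7672 genes (blue line, -0.09) and dotted lines at -1 and 1. The stem, mast, megakaryocyte and myeloid lists have medians between 1.10 and 1.68, and the erythroid maturation list lies lowest at -1.31.

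Genes of red cell maturation were the list with the lowest median. Of 26 compared members, 16 were lower in Gata2-detected cells and 2 were higher, where the shares over all genes were 17.9% and 16.8%. The median difference was -1.31. That median was -1.54 when taken within plate columns, -2.21 in column 1 and -0.58 in column 2. The mean over members per cell was 4.49 ± 0.92 (SD, n = 14) against 5.50 ± 0.73 (SD, n = 5) on the log2(CPM + 1) scale, and the sets overlapped. The median difference was -0.60 with a pseudocount of 10 CPM and 0.19 when all 24 cells were split by Gata2 with no Klf1 threshold. The other 11 of 37 listed genes did not pass the filter. Among these were the globins Hba-a2, Hbb-bs and Hbb-bt, the band 3 anion exchanger Slc4a1 and the erythroid aminolevulinate synthase Alas2, none of which reached 5 counts in more than 5 kept cells. Summed over all 37 genes, CPM overlapped widely (2711 to 9349 CPM in cells with Gata2, 3693 to 5251 CPM in cells without), the sum being carried by the few abundant members.

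Rhag, which encodes the Rh-associated glycoprotein of the red cell membrane, was among the lower members. In the Gata2-detected cells it had a lowest value of 0, a median of 24.5 and a highest value of 290.4 CPM, and 7 of the 14 were under 5 counts. In the Gata2-undetected cells it had 92.5, 126, 139.9, 183 and 67.8 CPM, so none of the 5 was low. Of the 14 cells with Gata2, 9 lay below all of those without it, whereas cell 5 lay above them, and the difference was -3.30 (pairs 21.4%). Summed over cells, Rhag was at 1505 of 22673566 counts, or 66.4 CPM (95% interval 63.1 to 69.8), against 936 of 7731667, or 121 CPM (113 to 129). Its partner Rhd, the Rh blood group antigen, differed by -2.47 and was at 5 counts or more in 5 of 14 against 4 of 5 cells.

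Other membrane and erythroid genes were lower too. Aqp1, the water channel of red cells, had 0 to 184 CPM (median 69.5) in Gata2-detected cells and 51.3, 221, 285, 164 and 69.8 CPM in the others, a difference of -2.29, with cells 4 and 7 above every Gata2-detected cell. Kel, the Kell blood group protein, differed by -2.14, Tspo2 by -2.26, Ermap, the erythroblast membrane-associated protein, by -1.74, Tfr2, the transferrin receptor that senses iron, by -1.52 and Blvrb, biliverdin reductase B, by -1.33. For Blvrb, 11 of 14 Gata2-detected cells lay below the lowest Gata2-undetected cell (471 CPM). Nxpe2 had 0 to 52.0 CPM (median 1.82) in Gata2-detected cells against 85.1, 0, 94.5, 165 and 249.7 CPM, with 4 of the 5 Gata2-undetected cells above every Gata2-detected cell and cell 4 at 0. Add2, adducin of the membrane skeleton, differed by -1.32. Hba-a1, alpha globin, differed by -1.84 with at most 30.4 CPM in any kept cell, and its reads cannot be told apart with certainty from those of its near-identical copy. The Add2 difference was -2.60 without cell 4, -0.96 without cell 7 and -0.87 without cell 11. The Blvrb difference was -0.74 without cell 10.

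The most abundant members differed by less than 1. Car2, carbonic anhydrase 2, had 448 to 1695 CPM (median 784) in Gata2-detected cells and 1171, 687, 1035, 701 and 832 CPM in Gata2-undetected cells, a difference of 0.07. Prdx2, the red cell peroxiredoxin, differed by -0.02. The 2 exceptions in the other direction were Mfsd2b and Car1. Mfsd2b, the sphingosine-1-phosphate exporter of red cells and platelets, had 172 to 1169.8 CPM (median 363) in Gata2-detected cells against 99.9, 296, 225, 199 and 101 CPM, and 10 of 14 lay above the highest Gata2-undetected cell, a difference of 1.37 (pairs 91.4%). Car1, carbonic anhydrase 1, had a lowest value of 0, a median of 374 and a highest value of 5252 CPM in the cells with Gata2, the highest in cell 12, and 0, 0, 21.8, 103 and 1184 CPM in the others. Its difference of 3.53 was 5.30 in plate column 1 and -0.01 in column 2, so it was not seen in both columns.

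Haem and iron genes leaned the same way by less. Of 28 compared members of 32, 7 (25%) were lower and none was higher, where the shares over all genes were 17.9% and 16.8%. Only 3 of the 7 were also lower in at least 75% of pairs. The lean rests on small differences, with 22 of 28 below 0, beside 4179 of 7672 over all genes. The median was -0.32, and it was -0.33 within columns and 0.24 over all 24 cells. The lean was not particular to haem and iron genes. Medians were -0.38 for S phase and -0.27 for ribosome genes, with 34 of 40 and 24 of 30 below 0. Cpox, coproporphyrinogen oxidase of the haem pathway, had a lowest value of 51.1, a median of 294 and a highest value of 816 CPM in Gata2-detected cells. The Gata2-undetected cells had 741, 1267, 734, 683 and 368 CPM. Of the cells with Gata2, 9 of 14 were below all of those without, and the difference was -1.31 (pairs 15.7%).

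Ppox, the next enzyme after Cpox, differed by -2.55 and Uros, uroporphyrinogen synthase, by -1.503, with cells of both sets at 0 for Uros. Tfrc, which encodes the transferrin receptor CD71, had 0.69 to 221 CPM (median 17.9) in cells with Gata2 and 71.6, 72.0, 62.8, 138 and 81.5 CPM in cells without, and 8 of 14 were below the lowest of the latter while 2 were above the highest. Alad, Urod and Fech of the same pathway differed by less than 1 between the sets: Alad -0.30, Urod -0.04 and Fech -0.82. Ferritin heavy chain Fth1 (-0.25) and light chain Ftl1 (-0.23), the iron stores and the most abundant members, also differed by less than 1. The Uros difference was -2.67 without cell 2 and -0.92 without cell 4.

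Among erythroid regulators few genes separated the sets. The list of erythroid transcription and signalling genes had 4 higher and 5 lower of 27 compared members, shares close to those of all genes, and a median of -0.26. Ikzf1, the zinc finger regulator Ikaros, was one of the lower members. It had a lowest value of 2.64, a median of 89.3 and a highest value of 328 CPM in Gata2-detected cells and 301, 127, 176, 246 and 282 CPM in the others, with 9 of 14 below all 5, a difference of -1.68 (pairs 15.7%). Klf3, a repressor induced by KLF1, had 0 to 65.4 CPM (median 15.4) against 73.6, 106, 90.8, 99.2 and 1.30 CPM and differed by -2.20, with 4 of 5 Gata2-undetected cells above every Gata2-detected cell. Myb, which sustains progenitor growth, had 95.7 to 857 CPM (median 296) against 729.8, 444, 432, 551 and 555 CPM, a difference of -0.84 that did not reach 1, with the Gata2-detected cell the higher in 22.9% of pairs. Summed, Myb was at 8666 of 22673566 counts, or 382 CPM (95% interval 374 to 390.3), against 4154 of 7731667, or 537 CPM (521 to 554). Myc (-0.21), Gfi1b (-0.03), Tal1 (0.31) and Bcl11a (-0.33) lay near the middle.

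The higher members of that list included Nfe2, which encodes the p45 subunit of NF-E2, used in megakaryocytes and erythroid cells. Nfe2 had a lowest value of 78.5, a median of 314 and a highest value of 1062 CPM in Gata2-detected cells, and 274, 23.6, 132, 99.2 and 159 CPM in the Gata2-undetected cells. Of the former, 8 of 14 exceeded all of the latter, a difference of 1.41 that was 3.13 in plate column 1 and 0.29 in column 2. Foxo3 (1.73) and Nr2c2 (1.81) were also higher. Epor was called higher by 1.15 only through cell 2, which had 0 counts, since the Gata2-undetected cells had 0, 216, 239, 338 and 53.5 CPM, the difference was -0.35 without that cell, and the Gata2-detected cell was the higher in 51.4% of pairs. The Nfe2 difference was 0.87 without cell 4. The Foxo3 difference was 0.79 without cell 11.

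The proteins that work with GATA factors were spread around 0. Of 28 compared members, 3 were higher and 4 lower, where the shares over all genes were 16.8% and 17.9%. The median was -0.09, the same as over all genes. Lmo2, the bridging protein of the GATA and TAL1 complex, had 119 to 1037 CPM (median 478) in cells with Gata2 and 641, 29.9, 427, 421 and 278 CPM in cells without, a difference of 0.68. Ldb1 (-0.35), Tal1 and the FOG1 gene Zfpm1 (-0.78) also differed by less than 1, but Zfpm1 differed by -1.60 within plate columns. Fli1, an ETS factor of megakaryocytes and stem cells, was higher by 1.94 (9 of 14 against 2 of 5 cells). Rcor1, the CoREST scaffold that binds the demethylase Kdm1a, was lower at -2.98 (5 of 14 against 4 of 5 cells), with 9 of 14 Gata2-detected cells under every Gata2-undetected cell, and the E protein genes Tcf12 and Tcf4 differed by -2.35 and -1.59. Runx1 differed by -1.35, with 8 of 14 Gata2-detected cells below all 5 others and cell 3 highest of all at 177 CPM. The Fli1 difference was 2.93 without cell 2. The Tcf4 difference was -1.04 without cell 17. The Runx1 difference was -0.92 without cell 4.

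Genes reported as GATA2 targets or partners in progenitors had 6 higher and 0 lower of 15 compared members, beside 16.8% and 17.9% over all genes. The median was 0.46, with 1.16 in plate column 1 and -0.03 in column 2. The median was -0.03, and 3 were higher, among genes at 5 counts or more in at least 12 kept cells. Among the 6 were Meis1, Dapp1 (an adaptor of phosphoinositide signalling), Etv6, Itga2b and Vim (vimentin). Members such as Meis1 passed the filter only through cells with Gata2 and so had to be higher there. Vim had 1.04 to 1312 CPM (median 353) in Gata2-detected cells against 138, 104, 36.1, 35.0 and 95.8 CPM, and 9 of 14 exceeded all 5. Kit, the stem cell factor receptor and a well studied GATA2 target, did not follow. It had 71.4 to 767 CPM (median 338) against 419, 553, 207, 246 and 227 CPM, a difference of -0.21, and summed over cells it was at 7596 of 22673566 counts, or 335 CPM (95% interval 328 to 343), against 2600 of 7731667, or 336 CPM (323 to 349). Cd34, Csf1r, Hlf, Il6ra and Mecom, also on the list, did not pass the filter. The Dapp1 difference was 0.52 without cell 4.

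Of 37 stem and multipotent progenitor genes 12 were compared, and 7 were higher and 1 lower, beside 16.8% and 17.9% over all genes. The median difference was 1.68. This median and count depend on the filter, since members such as Meis1 and Ifitm1 passed it only through cells with Gata2 and so had to be higher there. With 5 counts required in at least 12 kept cells the median was 0.74 and 1 member was higher, and with 1 count in any kept cell the median was 0.71. Within plate columns the median was 1.80, being 2.56 in column 1 and 0.76 in column 2, and without cell 4 it was 1.09. The level rests on a minority of genes, since 25 listed genes did not pass the filter. The defining stem cell markers Ly6a, Procr, Mecom and Hoxb4 had 0 counts in all 19 kept cells and Cd34 reached 5 counts in none. Ly6a, like Cd3e and Fcgr3 below, encodes an antigen used for depletion, so cells bearing it were to be removed by the beads. Hlf reached 5 counts in 1 of 14 Gata2-detected and 0 of 5 Gata2-undetected cells.

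Meis1, a homeobox partner of HOX proteins in stem cells and megakaryocytes, was at 5 counts or more in 7 of 14 Gata2-detected and 0 of 5 Gata2-undetected cells. In the cells with Gata2 it had a lowest value of 0, a median of 9.22 and a highest value of 855 CPM, and in the others 0, 1.73, 0.62, 0 and 0 CPM. The 7 positive cells exceeded all 5 Gata2-undetected cells and the other 7 lay within their range. The difference was 3.14.

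Ifitm1, an interferon-induced membrane protein gene high in stem cells, was at 5 counts or more in 6 of 14 Gata2-detected and 0 of 5 Gata2-undetected cells and differed by 2.91. Ifitm3 (1.99), Cd48 (1.89), the SOX factor gene Sox4 (1.83) and Etv6 (1.52) were the other higher members. Adgrg1, the adhesion receptor GPR56, differed by 0.80, from 2.10 in plate column 1 to -1.23 in column 2, while its rho with Gata2 was 0.71 over the 14 cells that held Gata2. The Cd48 difference was 1.14 without cell 4 and 0.97 without cell 11. The Etv6 difference was 2.44 without cell 11.

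Megakaryocyte and platelet genes were higher in 10 and lower in 1 of 17 compared members of 38, beside 16.8% and 17.9% over all genes. The median was 1.23 (0.95 within plate columns, 1.34 in column 1 and 0.53 in column 2). Without cell 7 the median was 0.73, and without cell 11 it was 0.94. Here too a gene seen only in cells with Gata2 could pass the filter and one seen only in the others could not. The late platelet genes Pf4, Ppbp, Itgb3, Selp, Tubb1 and Gp6 were at 0 in all 19 kept cells. The summed level of the 38 genes was 963 to 7244 CPM in cells with Gata2 and 1016 to 2302 CPM in cells without.

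Gp5, a subunit of the platelet receptor for von Willebrand factor, had a lowest value of 0, a median of 59.3 and a highest value of 306 CPM in the Gata2-detected cells, and 37.8, 0, 0, 0 and 0 CPM in the others. It was thus near absent from 4 of 5 Gata2-undetected cells, while 4 Gata2-detected cells also had 0. The difference was 3.56, and 4.53 within plate columns. F2r, the thrombin receptor PAR1, was counted in every kept cell. It had a lowest value of 71.7, a median of 266 and a highest value of 786 CPM in cells with Gata2 and 105, 162, 106, 6.56 and 174 CPM in the others, with 9 of 14 above all 5, a difference of 1.77 (pairs 81.4%). Itga2b encodes CD41, an antigen used for depletion, yet it had 0 to 542 CPM (median 125) in cells with Gata2 and 130.3, 155, 1.24, 0 and 87.4 CPM in cells without. Its difference of 1.496 was 3.22 in plate column 1 and -1.07 in column 2. The F2r difference was 0.94 without cell 11. The Itga2b difference was 0.69 without cell 7 and 0.40 without cell 11.

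Apoe, apolipoprotein E, was the most abundant member of the megakaryocyte list. Apoe had a lowest value of 53.7, a median of 1789 and a highest value of 4398 CPM in cells with Gata2, the lowest in cell 13 and the highest in cell 3, and 521, 679, 336, 618 and 1023 CPM in cells without, with 10 of 14 above all 5. The difference was 1.08, 0.98 in plate column 1 and 0.92 in column 2. Plek (pleckstrin, 1.91), Cd9 (2.13) and Zyx (zyxin, 1.23) were higher too, and Treml1, a receptor of platelet granules, was the lower member at -1.02. The Apoe difference was 0.94 without cell 3, 0.87 without cell 7, 0.98 without cell 12 and 0.98 without cell 22. The Cd9 difference was 3.19 without cell 2. The Zyx difference was 0.24 without cell 7. The Treml1 difference was -1.91 to -0.19 without cell 2, 3, 4, 6, 7, 11, 13, 14, 17, 18, 20 or 22.

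**Figure D3:**
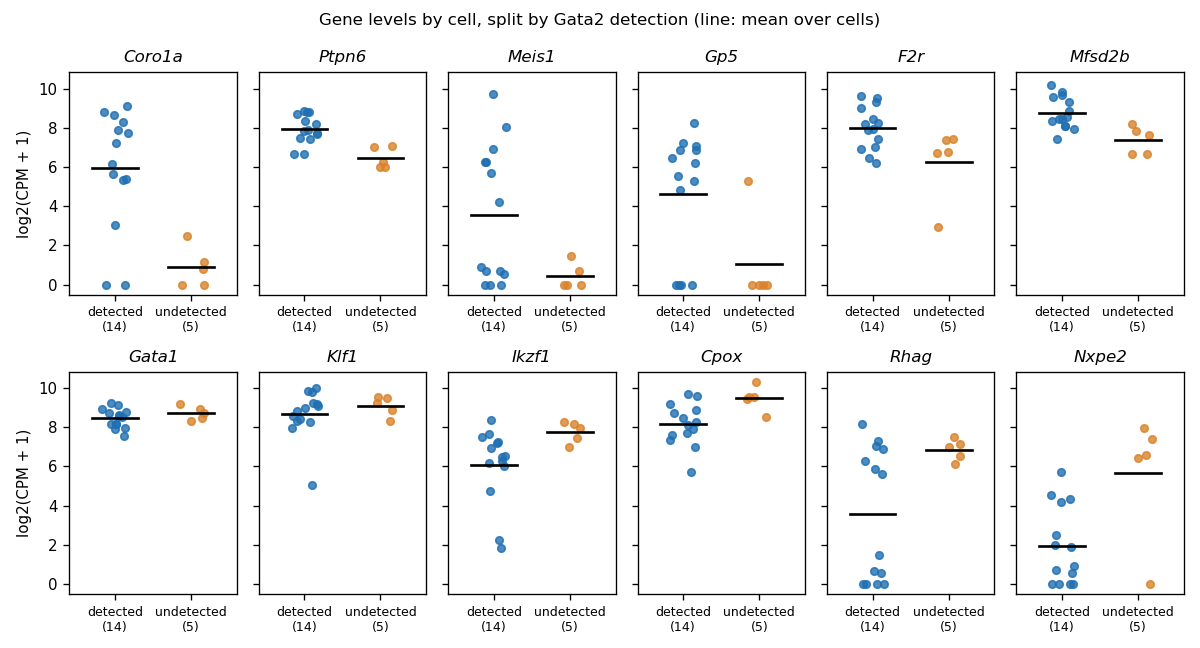
Levels of 12 genes as log2(CPM + 1) in each cell, split into 14 Gata2-detected and 5 Gata2-undetected cells, with a line at the mean of each set. Coro1a, Meis1 and Gp5 fall into present and absent cells. Ptpn6, F2r and Mfsd2b are shifted upwards with overlap, and Ikzf1, Cpox, Rhag and Nxpe2 are lower in Gata2-detected cells. For Gata1 and Klf1 all Gata2-undetected cells lie within the wider range of the Gata2-detected cells.

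Mast cell, basophil and myeloid lists also had positive medians, from few genes. Of 24 mast cell and basophil genes 4 were compared and 3 were higher, where the share over all genes was 16.8%. The median was 1.32, and it was 0.41 for members at 5 counts or more in at least 12 kept cells. The summed level of the 24 genes was 102 to 1309.6 CPM in cells with Gata2 and 148 to 394 CPM in cells without. Of the list, 13 genes had 0 counts in every kept cell, among them the mast cell markers Ms4a2, Fcer1a, Cma1, Tpsb2 and Mitf. Slc18a2, the vesicular monoamine transporter of mast cells and platelets, had a lowest value of 0, a median of 10.4 and a highest value of 307 CPM in cells with Gata2, and 0, 0, 0.62, 0.73 and 0 CPM in the others. All 9 cells above the highest Gata2-undetected cell were at 5 counts or more. The difference was 3.24 (3.84 in plate column 1, 1.74 in column 2). Slc18a2 passed the filter only through cells with Gata2 and so had to be higher there. Srgn, the granule proteoglycan serglycin, had 64.2 to 949.9 CPM (median 493) against 149, 339.7, 49.1, 111 and 247 CPM, a difference of 1.13. Gmpr, guanosine monophosphate reductase, was higher by 1.504. The Srgn difference was 0.74 without cell 7. The Gmpr difference was 0.93 without cell 4, 2.41 without cell 7 and 0.76 without cell 17.

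Of 33 myeloid genes 9 were compared and 5 were higher, where the share over all genes was 16.8%. The median was 1.10, and it was 0.76 without cell 10 and 2.03 without cell 11. It lay between 0.80 and 0.88 without cell 4, 7, 17 or 20, and was 0.28 with 1 count in any kept cell. Summed over the 33 genes, the level was 136 to 2511 CPM in cells with Gata2 and 109 to 629.9 CPM in cells without. Elane, Csf3r, Fcgr3, Cebpe and Ctss had 0 counts in all 19 kept cells, and Mpo, myeloperoxidase, differed by -0.58. Coro1a, the leukocyte actin-binding protein coronin 1A, had the largest difference of any named gene, 5.06. In cells with Gata2 it had a lowest value of 0, a median of 109 and a highest value of 557 CPM, and in cells without 0, 4.61, 1.24, 0.73 and 0 CPM. Of the former, 12 of 14 exceeded all of the latter and 2 were at 0. The difference was 5.36 in plate column 1 and 4.87 in column 2, and summed over cells Coro1a was at 3789 of 22673566 counts, or 167 CPM (95% interval 162 to 173), against 11 of 7731667, or 1.42 CPM (0.71 to 2.55). Coro1a overlaps Bola2, Ptpn6 (below) overlaps Gm20531 and Cpox (above) overlaps Gpr15 in the annotation, and without strand the reads of such pairs cannot be told apart. Cst7, cystatin F, differed by 3.53 (10 of 14 against 1 of 5 cells). Laptm5, a lysosomal membrane protein of blood cells, had 52.9 to 523 CPM (median 268) against 157, 3.45, 130.0, 143 and 106 CPM, with 10 of 14 above all 5 and a difference of 1.76. The Laptm5 difference was 0.78 without cell 4.

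Markers of other cell types were looked at on both sides. None of 14 lymphoid and none of 14 endothelial and stromal genes passed the filter, and Cd3e, Cdh5, Kdr and Col1a1 were at 0 throughout. The macrophage genes C1qa, C1qb, Adgre1, Cd5l and Vcam1 were at 0, and of 14 listed genes only the iron exporter Slc40a1 was compared, at -0.46. The summed level of 16 hepatocyte genes was 6.28 to 1756 CPM in cells with Gata2, the highest in cell 10, and 18.2 to 65.9 CPM in cells without. Of these genes, 4 were compared with none past 1: alpha-fetoprotein Afp -0.10, albumin Alb 0.56, Apoc1 0.01 and transferrin Trf 0.75. The part of such RNA in the differences was not tested.

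Signalling genes were split. Of 24 compared cytokine receptor and signalling genes 7 (29.2%) were higher and 3 (12.5%) lower, where the shares over all genes were 16.8% and 17.9%. The median was 0.09 (-0.23 in plate column 1, 0.64 in column 2). Ptpn6 encodes the phosphatase SHP-1, which turns off KIT and erythropoietin receptor signals. Ptpn6 had a lowest value of 101, a median of 232 and a highest value of 454 CPM in cells with Gata2 and 74.3, 127, 131, 64.2 and 63.2 CPM in cells without, with 12 of 14 above all 5. The difference was 1.47 (pairs 94.3%), and it was 0.23 in plate column 1 and 2.02 in column 2. Its relative Ptpn11, the phosphatase SHP-2, had 0 to 70.8 CPM (median 0) against 34.4, 68.5, 48.5, 67.1 and 9.13 CPM, with 10 of 14 below all 5, a difference of -3.66. Il2rg, the common gamma chain of interleukin receptors, was higher by 2.94 (9 of 14 against 1 of 5 cells), and Igf1r by 2.12, while Socs2 differed by -1.83. The Socs2 difference was -1.12 without cell 17. Beside Itga2b, Tfrc and Kit above, the sort antigens included Cd24a, which encodes CD24. It was at 5 counts or more in 6 of 14 Gata2-detected and 5 of 5 Gata2-undetected cells, with 0 to 388 CPM (median 1.51) in the former and 115, 98.4, 78.4, 126 and 86.7 CPM in the latter. Of the cells with Gata2, 8 were under 5 counts, cell 16 had 18.6 CPM and the other 5 had 94.6 CPM or more, a difference of -3.05.

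Of 40 S phase genes 9 were lower and 1 higher, where over all genes 17.9% were lower and 16.8% higher, at a median of -0.38 (-0.26 within plate columns, where 4 were lower, with -0.56 in column 1 and 0.11 in column 2), so the list did not differ in one direction in both columns. Ccne1, the G1/S cyclin E1, had a lowest value of 0, a median of 70.6 and a highest value of 463 CPM in cells with Gata2, and 207, 636, 208, 477 and 196 CPM in cells without. Of the former, 11 of 14 were below all 5 of the latter and none was above the highest, a difference of -3.23. Its rho with Gata2 was -0.78 over 19 cells and -0.72 over the 14 with Gata2. Ccne2, cyclin E2, differed by -2.07 and Rrm2, the ribonucleotide reductase subunit, by -1.53, whereas the helicase gene Mcm6 differed by -0.19. The exception was Chaf1a, a histone chaperone subunit, at 2.93 (14 of 14 against 3 of 5 cells).

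Of 39 compared G2 and M phase genes 11 (28.2%) were higher and 2 (5.13%) lower, where the shares over all genes were 16.8% and 17.9%. Only 2 of the 11 were also higher in at least 75% of pairs. The median was 0.26, and 7 were higher without cell 2 or without cell 16. Ccnb2, cyclin B2, had a lowest value of 138, a median of 447 and a highest value of 723 CPM in cells with Gata2, and 383, 61.0, 123, 220.2 and 295 CPM in cells without. Of the former 10 of 14 exceeded all 5, a difference of 1.18 (pairs 87.1%). Tpx2, a spindle assembly factor, was higher by 1.86, Plk1, polo-like kinase 1, by 1.89 and Cdc25b, a mitotic phosphatase, by 2.63 (6 of 14 against 0 of 5 cells). Cdc25b passed the filter only through cells with Gata2. Bub1b, the checkpoint kinase BUBR1, went the other way: it had 0 to 285 CPM (median 72.9) against 376, 329.9, 336, 306 and 11.1 CPM, and 4 of 5 Gata2-undetected cells were above every Gata2-detected cell, a difference of -2.19. Cdc20 differed by -1.19, and Mki67, the Ki-67 antigen, by -0.28. The Ccnb2 difference was 0.79 without cell 4. The Tpx2 difference was 0.73 without cell 17. The Plk1 difference was 1.02 without cell 2, 3.15 without cell 11 and 1.21 without cell 17. The Cdc20 difference was -0.92 without cell 2, -0.63 without cell 3, -0.94 without cell 4 and -0.75 without cell 10.

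The 15 genes with the largest positive differences, among those higher in at least 75% of pairs, were led by Coro1a. Rassf5, a RAS effector, followed at 4.56, then came Smim5 (4.51), Fam129b (4.40) and Fzr1, the CDH1 activator of the anaphase-promoting complex (4.38). Rassf5 was at 5 counts or more in 11 of 14 Gata2-detected and 0 of 5 Gata2-undetected cells. Ptbp3, an RNA-binding splicing regulator, reached most cells with Gata2. It had a lowest value of 3.59, a median of 90.5 and a highest value of 191 CPM in cells with Gata2, and 4.73, 0.58, 0.62, 0 and 30.0 CPM in cells without, with 12 of 14 above all 5 (difference 4.33, pairs 94.3%). Others were Ccnf, cyclin F (4.19), Aqp9, an aquaglyceroporin (4.17), Tmem129 (4.02), the chromatin reader Brpf1 (3.88), the clock repressor Cry2 (3.87), the atypical E2F gene E2f8 (3.74), Dnaaf5 (3.74) and Ppic, cyclophilin C (3.74). Aqp9, Brpf1, Cry2 and E2f8 reached 5 counts in none of the 5 Gata2-undetected cells.

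The 15 genes at the other end were led by Snap29, a SNARE of vesicle fusion. Snap29 had a lowest value of 0, a median of 0 and a highest value of 40.5 CPM in cells with Gata2, where only 2 of 14 reached 5 counts, and 70.2, 27.1, 30.5, 19.7 and 138 CPM in cells without, a difference of -4.70 (pairs 5.71%). Peg12, a paternally expressed imprinted gene, had 0 to 32.2 CPM (median 0) against 68.2, 113, 19.9, 80.2 and 28.7 CPM, with 12 of 14 below all 5, a difference of -4.51. Stam, an endosomal sorting adaptor, had 0 to 64.8 CPM (median 4.90) against 132, 131, 44.8, 59.1 and 168 CPM, a difference of -4.15 (pairs 4.29%). These sets overlapped only through a few Gata2-detected cells.

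Slc25a15, the mitochondrial ornithine carrier, differed by -3.84, with 12 of 14 cells below all 5. Eif2ak2, the kinase PKR that senses double-stranded RNA, differed by -4.10. The others were Rnf25 (-4.19), Fam220a (-4.16), Cdr2 (-4.13), the pseudouridine synthase gene Rpusd1 (-4.06), Cyhr1 (-3.92), Gtpbp8 (-3.85), Oxld1 (-3.80), Mpp6 (-3.80), Nudt4 (-3.77) and Nxpe2. Fam220a, Gtpbp8, Mpp6, Nudt4 and Oxld1 were at 5 counts or more in all 5 Gata2-undetected cells.

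Genes whose log2(CPM + 1) tracked that of Gata2 most closely over the 19 cells were Lgals9 (Spearman's rho 0.86), Rtf2 (0.83), Apoe (0.78), Gmfg (0.77) and Etfb (0.76). Lgals9, galectin-9, had a lowest value of 235, a median of 646 and a highest value of 2237 CPM in cells with Gata2, the highest in cell 3, which also held the most Gata2, and 308, 62.2, 212, 273 and 369 CPM in cells without. Gmfg, an actin regulator of blood cells, had 31.7 to 358 CPM (median 143) against 41.2, 48.4, 37.3, 39.4 and 37.8 CPM, and 13 of 14 exceeded all 5, a difference of 1.56 with little change by plate column (1.76 and 1.77). Since the step between the sets enters these values, rho was also taken over the 14 cells with Gata2. It was 0.79 for Apoe, 0.75 for Lgals9, 0.70 for Rtf2, 0.69 for Etfb and 0.53 for Gmfg.

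The 5 genes with the lowest rho were Fam220a (-0.80), Ccne1 (-0.78), Srsf10 (-0.78), Rrn3 (-0.77) and Hspa9 (-0.77). Hspa9 encodes mortalin, a mitochondrial chaperone of iron-sulfur cluster assembly. It had 243 to 1409 CPM (median 806) in cells with Gata2 and 1304, 949, 1169, 962 and 1441 CPM in cells without, and 8 of 14 were below all 5, a difference of -0.53. Over the 14 cells with Gata2 its rho was -0.87. Rrn3, the RNA polymerase I initiation factor, had a rho of -0.78 over those 14 cells. Medians of this rho over list members were 0.40 for stem, 0.36 for reported target, 0.32 for megakaryocyte and 0.32 for myeloid genes. They were -0.30 for ribosome, -0.27 for erythroid maturation and -0.22 for S phase genes, beside -0.03 for all genes. The negative value was thus not particular to the maturation list.

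**Figure D4:**
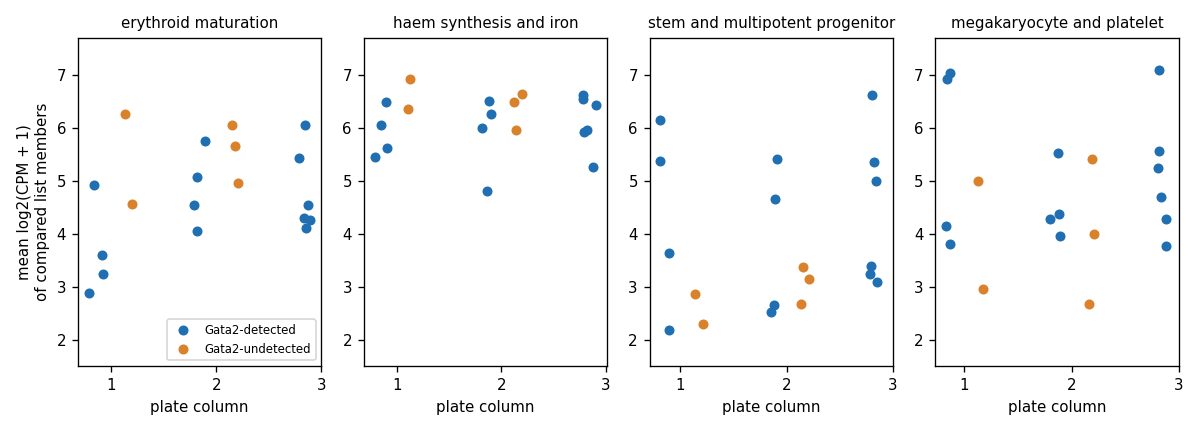
Mean log2(CPM + 1) of the compared members of 4 gene lists in each kept cell, by plate column (blue, Gata2-detected; orange, Gata2-undetected). Column 3 holds 6 blue and 0 orange cells, and in columns 1 and 2 the highest blue cells lie above every orange cell for stem and megakaryocyte genes, while the 2 colours overlap in all 4 lists.

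Promoters are printed with the GATA word for 4 genes, Gp5 and Slc18a2 of the higher and Rhag and Cpox of the lower genes. These were chosen after their levels and words were seen and do not stand for their lists. Sequences are from RefSeq (GRCm38.p6), the 250 bases before the start of transcription, written 5′ to 3′ on the gene's strand, with the word AGATAA, the word AGATAG, the word TGATAA, the word TGATAG or their reverse complements in capitals. The windows are chr16:30310782-30311031 (minus strand) for Gp5, chr19:59260628-59260877 (plus) for Slc18a2, chr17:40810899-40811148 (plus) for Rhag and chr16:58669958-58670207 (plus) for Cpox.
Gp5: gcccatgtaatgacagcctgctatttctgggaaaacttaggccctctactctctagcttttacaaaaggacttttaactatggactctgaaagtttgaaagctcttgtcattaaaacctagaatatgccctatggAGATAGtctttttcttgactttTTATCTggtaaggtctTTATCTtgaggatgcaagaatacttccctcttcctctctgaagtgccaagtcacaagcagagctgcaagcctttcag
Slc18a2: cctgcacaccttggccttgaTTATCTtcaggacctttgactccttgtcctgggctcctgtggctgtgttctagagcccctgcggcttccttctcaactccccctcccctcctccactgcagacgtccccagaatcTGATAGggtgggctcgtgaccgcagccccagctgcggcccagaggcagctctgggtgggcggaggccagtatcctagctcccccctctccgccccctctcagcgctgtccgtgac
Rhag: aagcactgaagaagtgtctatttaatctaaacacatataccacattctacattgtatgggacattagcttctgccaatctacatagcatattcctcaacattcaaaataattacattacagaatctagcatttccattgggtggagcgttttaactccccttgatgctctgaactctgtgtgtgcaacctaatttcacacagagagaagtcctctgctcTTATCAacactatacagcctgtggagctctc
Cpox: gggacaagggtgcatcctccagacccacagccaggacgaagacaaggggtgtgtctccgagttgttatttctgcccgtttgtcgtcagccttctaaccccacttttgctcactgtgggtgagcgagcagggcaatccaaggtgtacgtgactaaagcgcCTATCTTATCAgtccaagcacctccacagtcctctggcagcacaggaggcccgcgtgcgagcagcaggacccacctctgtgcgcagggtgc
Gp5 holds words that begin 115, 93 and 77 bases before the start, Slc18a2 at 230 and 115, Rhag at 31, and Cpox at 91 and 86, where they overlap by 1 base. A further Cpox word at position 5 after the start is not shown.

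In windows that also take in 50 bases after the start, at least 1 of these words was present in 30.2% of 27025 genes and in 17.2% of the 5940 compared genes with a window. The share was 16% of 1053 higher and 17.8% of 1095 lower genes, so neither direction was richer in the word than compared genes at large. It was found in 7 of 13 lower erythroid maturation genes, in 15 of 27 of all listed maturation genes, and in 1 of 7 higher megakaryocyte genes. The word was in 1 of 6 lower haem and iron genes and 1 of 3 higher mast cell genes. Among the 15 largest differences each way, it was in 0 of 10 higher and 1 of 14 lower genes with a window. A match is a description of the letters in the window and shows no binding.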

How the data were processed

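The files hold 1 deposited table of read counts per gene for 24 single cells, with no normalization by the authors. The submitters' processing notes name STAR 2.4, featureCounts and GRCm38. Counting options, annotation and cell filters: not given in the sources used here. Libraries are unstranded per the labels' protocols, so reads of overlapping genes cannot be told apart, which touches 87 of the 176 genes named here that overlap another gene of GENCODE M21. Symbols were found for 49326 of 49585 identifiers, and the others held 0.03% of counts.

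From the deposited counts, CPM (counts over the cell's total) and log2(CPM + 1) were computed, and means over the 14 Gata2-detected and 5 Gata2-undetected cells were subtracted. Such a difference is not the ratio of summed levels. It can understate or overstate the change of low genes and of genes without counts in some cells. Rhag differed by -3.30, beside 66.4 against 121 CPM summed over cells, and Coro1a by 5.06, beside 167 against 1.42 CPM. A pseudocount of 10 CPM gave 477 higher and 465 lower genes, where 1290 and 1376 are reported. No count test was run, because all cells are 1 sample. The method was tested on simulated data. The members and gene lists were chosen with earlier results of these data known. Named genes are Gata2, Gata1 and Klf1, the 15 largest differences each way with at least 75% of pairs, per list the 3 largest and 2 most abundant, and the 5 most like and unlike Gata2. Predicted models and pseudogenes were passed over, other genes were named after their values were seen, and some genes are not reported here. Alternatives included edgeR 4.0.16 and DESeq2 1.42.0 scaling (R 4.3.3), pseudocount, filters, thresholds, thinning, plate column and leaving out each cell. Python 3.11.15, pandas 2.3.3 and scipy 1.17.1 were used.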

Additional observations from a re-analysis of the deposited data

Results flagged for a closer look

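Gata2 was also seen outside the compared cells. Cell 1 had 59 Gata2 counts, or 48.7 CPM, although its Klf1 was 2.48 CPM and its Gata1 2.48 CPM. The other 4 cells with Klf1 under 10 CPM had 0 to 3.42 CPM of Gata2. Cell 23, also left out, had Gata1 at 886 CPM with Klf1 at 3.42 CPM. In the 5 left-out cells the mean of the 9 compared myeloid genes was 7.27 to 9.54 on the log2(CPM + 1) scale, above every kept cell, whose highest was 5.63. Among the 5 Gata2-undetected cells, 21 measures were looked at for a cell whose gap to the next exceeded 0.71 of their range. None was found, but with 5 cells this rule flags only extreme gaps. The shares of counts from mitochondrial and ribosomal protein genes were not among these measures. Cell 4 was lowest in both (2.18% and 5.32%, the next cells 2.68% and 7.18%).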

How the results depend on the processing

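Without the Klf1 threshold, all 24 cells by Gata2 alone, 10 of 17 list medians changed sign: erythroid maturation (0.19), mast cell (-0.0014), myeloid (-0.73), erythroid transcription (0.70), haem (0.24), ribosome (0.079), GATA factors (0.20), macrophage (1.09), hepatocyte (-0.09) and G1 genes (0.05). The stem median was 0.35, and 884 genes were lower. Of named genes with a difference of 1 or more, 14 changed sign there: Add2 (0.65), Aqp1 (0.24), Blvrb (1.33), Cd48 (-0.18), Cpox (1.37), Ddx21 (0.36), Ermap (1.12), Etv6 (-0.43), Gmpr (-0.071), Kel (0.060), Plek (-0.54), Srgn (-0.026), Tfr2 (0.31) and Zyx (-0.49). So did 14 with smaller differences, among them Gata1 (1.87), Klf1 (2.26) and Fech (1.58). Higher or lower members then numbered 3 for maturation, 2 for haem, 2 for myeloid, 4 for S phase and 18 for G2 and M phase. The cause was not tested, but this setting adds the 5 cells with high myeloid genes given above.

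With a Gata2 threshold of 100 CPM (8 against 11 cells, chosen after seeing the data), Ccnd2 (0.12), Cry2 (-0.11), Nudt4 (0.15), Socs2 (0.10) and Tcf4 (0.60) changed sign among named genes with a difference of 1 or more, and 7 with smaller ones did, among them Mki67 (1.56). Sort antigens had -1.17, 15 S phase genes were lower and 5 G2 and M phase genes higher. Without plate column 3, also chosen after seeing the data, the median was 2.66 for myeloid and -1.39 for sort antigens, with 4 stem and 6 megakaryocyte genes higher and 5 S phase genes lower. A pseudocount of 10 CPM gave 477 higher and 465 lower genes, with 8 maturation, 4 haem and 5 S phase genes lower and 4 stem and 5 G2 and M phase genes higher. Requiring 12 cells, which leaves fewer genes, gave 660.0 and 791, with 8 maturation and 4 haem genes lower, 1 stem, 5 megakaryocyte, 2 myeloid and 3 reported target genes higher and medians of 3.41 for myeloid, 0.74 for stem, 0.41 for mast cell and -0.03 for reported target genes. Genes with 1 count in any kept cell gave 12 higher stem genes but lower medians for stem (0.71), myeloid (0.28) and reported target genes (0.06). Medians over cells gave 2.495 for mast cell genes, 0.30 for myeloid genes and 4 lower S phase genes, as did differences within columns (4), and Epor (-0.73) and Ifitm1 (0.00) lost their direction.

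Leaving out each kept cell in turn gave 1180 to 1443 higher and 1283 to 1558 lower genes. Medians were -1.51 to -1.11 for maturation, 1.09 to 1.82 for stem, 0.73 to 1.67 for megakaryocyte, 1.04 to 1.69 for mast cell and 0.76 to 2.03 for myeloid genes, and 7 to 13 G2 and M phase genes were higher. Epor was -0.35 (without cell 2) to 1.75. TMM scaling of edgeR and DESeq2 size factors changed no named gene with a difference of 1 or more in sign. No paired analysis was possible because all cells belong to 1 group and share no replicate numbers. With 5 cells without Gata2 and amplified reads without molecular identifiers, a gene at 0 in 1 cell may be missed rather than absent.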

Other observations

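Ribosome biogenesis and translation genes leaned lower in Gata2-detected cells by small differences. Of 30 genes 1 was higher and 2 lower, where the shares over all genes were 16.8% and 17.9%. The median was -0.27 (-0.25 within plate columns), with 24 of 30 below 0. Eef1a1, the translation elongation factor, had a lowest value of 5579, a median of 7453 and a highest value of 9825 CPM in Gata2-detected cells. In the Gata2-undetected cells it had 8541, 2890.0, 7189, 6033 and 6519 CPM, and the difference was 0.35. Cell 4 was the low one and the sets overlapped. Eif5a, the hypusinated translation factor, differed by 0.04. Polr1a, the largest RNA polymerase I subunit, was the higher member at 2.43, but this was -1.72 in plate column 1 and 5.21 in column 2. Ddx21 and Ubtf, both of ribosomal RNA synthesis, differed by -1.01 and -1.004. The Ddx21 difference was -0.999 to -0.57 without cell 2, 3, 4, 5, 7, 12, 16 or 22. The Ubtf difference was -0.98 to -0.52 without cell 6, 7, 8, 10, 12, 13, 17 or 20.

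G1 cyclins and cell cycle inhibitors had 2 higher and 2 lower of 13 compared members of 20, beside 16.8% and 17.9% over all genes. Cdkn2d, the inhibitor p19, was at 5 counts or more in 8 of 14 Gata2-detected and 2 of 5 Gata2-undetected cells and differed by 1.47. Cdkn1b, the inhibitor p27, differed by 1.67 (9 of 14 against 1 of 5 cells), and Ccnd2, cyclin D2, by -1.10. Cdk4 had 646 to 1497 CPM (median 1039.6) in cells with Gata2 and 1049, 782, 1025, 1410.1 and 984 CPM in cells without, a difference of -0.05. The Cdkn2d difference was 0.95 without cell 2, 0.95 without cell 4, 0.95 without cell 7 and 2.31 without cell 17. The Ccnd2 difference was -0.97 without cell 4, -0.67 without cell 5, -0.999 without cell 11 and -0.67 without cell 12.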
